A study of Solanum lycopersicum with 6 samples.

Results

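The alpha-expansin family of tomato was followed here through 10 genes, taken as every non-control probe on the arrays whose gene identifier is one of the family's 10 listed loci. Each gene was represented by a single probe, so they are 10 of the 42569 probes with a tomato gene identifier, and 10 of the 34527 genes. The family below means these 10 listed genes, and other expansin genes were not counted. SlEXP1 (Solyc06g051800) and SlEXP2 (Solyc06g049050) carry the names used in the study, and the other 8 loci are given by identifier because no source used here names them. By the convention of tomato identifiers, 4 of the genes (SlEXP1, SlEXP2, Solyc06g005560 and Solyc06g076220) lie on chromosome 6.

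Expansins are small secreted proteins of the plant cell wall. They loosen the contacts between cellulose microfibrils and the polysaccharides around them at acid pH, without cutting the polymers, and so allow a wall under turgor to extend. Alpha-expansins form the largest branch of the superfamily in dicots, and their members are used in different organs and at different stages. In tomato, SlEXP1 is best known for the softening of ripening fruit and SlEXP2 for elongating, auxin-treated hypocotyls.

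Seedlings of the cultivar Managua RZ were grown for 7 d with a 16 h photoperiod under positive DIF, with a day temperature of 30°C and a night temperature of 25°C, or under negative DIF, with 25°C by day and 30°C by night. Epicotyls, the stem above the cotyledons, were harvested at an age of 14 d during the light period. The plants thus differed in temperature at harvest as well as in DIF. With 16 h of light, the daily mean temperature was also higher under positive DIF. No transgene or mutation is named in the labels, and positive DIF is the reference in every comparison. Each treatment had 3 arrays, 1 per biological replicate, and no gene list used here defines an epicotyl, so the tissue label was not checked against markers. RNA came from whole epicotyls, in which fewer cells of a type and less RNA per cell cannot be told apart.

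All 10 genes were well above background on all 6 arrays, and none of their 60 spots was saturated or left out. Over all 43803 probes, between 62.2% and 67.0% were well above background on an array. The 75th percentile of the processed signal ran from 1572 to 2417 under negative DIF and from 1475 to 1553 under positive DIF. Levels below are therefore log2 of the processed signal minus the 75th percentile of the same array, and a fold change below 0 on the log2 scale means a lower signal under negative DIF. Negative DIF replicates 1 and 2 shared 1 slide, while replicate 3 lay beside all 3 positive DIF arrays on the other.

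The 10 genes did not all differ in 1 direction. Under negative DIF, 6 genes were lower and 4 were higher than under positive DIF, and 1 of the 4, Solyc06g076220, was separated between the treatments on all arrays. In limma, 1 gene (SlEXP1) was lower at an adjusted p under 0.05 and none was higher, where 0.495% of all probes were called lower and 0.92% were called in either direction. At an unadjusted p under 0.05, 5 genes were lower and 1 was higher, against 8.72% and 10.2% of all probes, or 18.9% in either direction. The 3 negative DIF arrays lay wholly below the 3 positive DIF arrays for 5 genes and wholly above for 1, against 12.4% and 14.6% of all probes, or 27% in either direction. The whole family belongs to the 25327 probes that were well above background on all 6 arrays. Of those probes 1.01% were called at an adjusted p under 0.05, 11.6% were lower and 12.8% higher at an unadjusted p under 0.05, and 17.8% lay wholly below and 17.9% wholly above. The median log2 fold change was -0.83 over the 10 genes and 0.07 over all probes, and the median size of the change was 0.94 against 0.32.

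**Figure D1:**
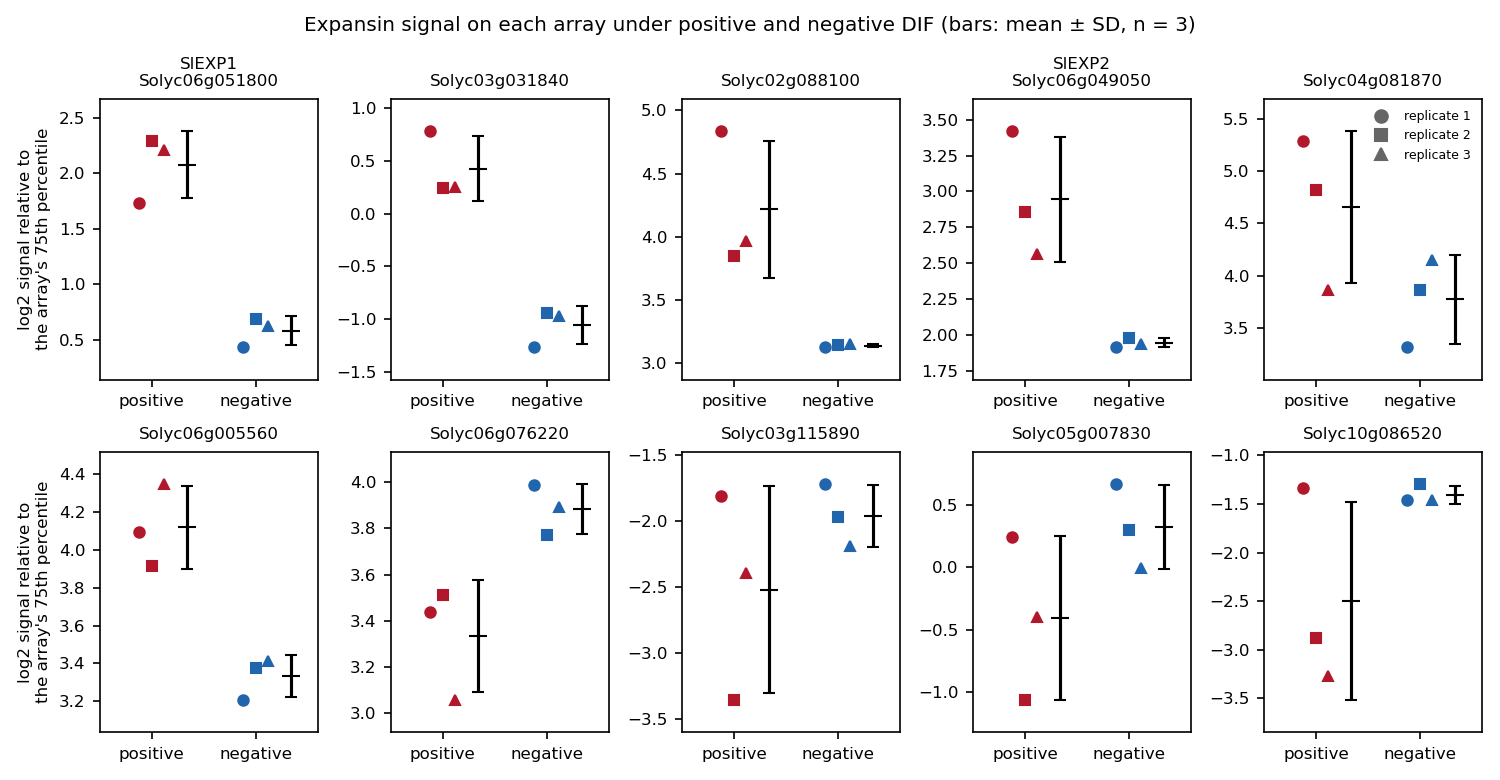
Log2 processed signal relative to the array's 75th percentile (vertical axis) for each of the 10 expansin genes on the 3 positive DIF arrays (red) and 3 negative DIF arrays (blue), with marker shape for the replicate and bars for the mean ± SD (n = 3). The panels run from SlEXP1, which changed by -1.50 on the log2 scale, to Solyc10g086520, at 1.09, and the vertical scale differs between panels.

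SlEXP1 and Solyc03g031840 differed most between the treatments. The level of SlEXP1 was 1.73, 2.29 and 2.21 on positive DIF replicates 1 to 3 and 0.43, 0.68 and 0.62 on the negative DIF replicates. The lowest positive DIF array, replicate 1, was thus still well above every negative DIF array. The gene fell, with a log2 fold change of -1.50 (95% interval from -2.02 to -0.97) that left 35.4% of its positive DIF signal. Its adjusted p of 0.048 from limma was just inside the threshold and moved outside it without any 1 of the 6 arrays, to between 0.063 and 0.178. The share of all probes called lower was then between 0.0% and 0.32%, against 0.495% with all arrays.

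Solyc03g031840 had almost the same fold change. Its level was 0.78, 0.24 and 0.25 under positive DIF and -1.26, -0.94 and -0.97 under negative DIF. Here positive DIF replicate 1 was the highest array, the reverse of SlEXP1, and the treatments did not overlap. In limma its log2 fold change came to -1.48 with a standard error of 0.23 and an adjusted p of 0.051, so 35.9% of the positive DIF signal was left and the adjusted threshold was narrowly missed. With quantile normalization the gene passed, at an adjusted p of 0.038 from limma, and over all alternatives that p ran from 0.010 to 0.471.

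SlEXP2, Solyc02g088100 and Solyc06g005560 also lay lower on all negative DIF arrays, but by less. SlEXP2 stood at 3.42, 2.86 and 2.56 under positive DIF and at 1.92, 1.98 and 1.94 under negative DIF. The negative DIF arrays thus agreed to within a few hundredths while the positive DIF arrays spread over almost a whole log2 unit. The same contrast was seen in Solyc02g088100, which was at 4.83, 3.85 and 3.97 under positive DIF and at 3.13, 3.15 and 3.15 under negative DIF. Its signal under negative DIF was 47.5% of that under positive DIF, with a log2 fold change of -1.07 (95% interval from -1.78 to -0.36, adjusted p = 0.133 from limma). For Solyc06g005560 the levels were 4.09, 3.91 and 4.35 against 3.21, 3.38 and 3.41. This was the smallest difference among the 5 genes that were lower without overlap, at -0.78 on the log2 scale (95% interval from -1.25 to -0.32, adjusted p = 0.109 from limma). In limma all 3 passed the unadjusted threshold and none passed the adjusted one, where SlEXP2 had an adjusted p of 0.117.

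Solyc04g081870, with the largest share of the family's signal as a mean of all 6 arrays, had overlapping treatments. Its level was 5.29, 4.81 and 3.86 under positive DIF and 3.31, 3.86 and 4.15 under negative DIF. Positive DIF replicate 3 was below negative DIF replicate 3 and about level with negative DIF replicate 2. The log2 fold change was -0.88, and its 95% interval from -1.89 to 0.13 takes in no change. Leaving out positive DIF replicate 3 moved the value to -1.28 (unadjusted p = 0.011 from limma), and leaving out positive DIF replicate 1 moved it to -0.56.

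Solyc06g076220 was the only gene of the family whose negative DIF arrays all lay above the positive DIF arrays. Its level was 3.44, 3.51 and 3.06 under positive DIF and 3.99, 3.77 and 3.89 under negative DIF. The signal was 1.46-fold higher under negative DIF, a log2 fold change of 0.55 (95% interval from 0.07 to 1.03, unadjusted p = 0.031 and adjusted p = 0.214 from limma). Without any 1 of the negative DIF arrays, or without positive DIF replicate 3, the unadjusted p from limma was between 0.058 and 0.082, and the adjusted threshold was not passed in any setting tried.

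The remaining 3 genes, Solyc05g007830, Solyc10g086520 and Solyc03g115890, had higher means under negative DIF and overlapping arrays. For Solyc10g086520 the levels were -1.34, -2.88 and -3.27 under positive DIF and -1.46, -1.29 and -1.46 under negative DIF. Positive DIF replicate 1 alone reached the negative DIF levels. With all arrays the log2 fold change was 1.09 (95% interval from -0.12 to 2.30, adjusted p = 0.307 from limma), and without positive DIF replicate 1 it was 1.67 (unadjusted p = 5.2e-04 and adjusted p = 0.0696 from limma, the lowest adjusted p of its alternatives, which reach 0.909). Solyc05g007830 was at 0.25, -1.06 and -0.40 under positive DIF and at 0.67, 0.30 and -0.00 under negative DIF, a log2 fold change of 0.72 (95% interval from -0.18 to 1.63). Solyc03g115890 was at -1.81, -3.36 and -2.40 against -1.72, -1.97 and -2.19, a log2 fold change of 0.56 (95% interval from -0.43 to 1.55). In all 3 genes positive DIF replicate 1 was the highest of its treatment, and without it Solyc05g007830 was at 1.05 and Solyc03g115890 at 0.92. Leaving out the lowest array of the treatment had the opposite effect. Without positive DIF replicate 2 Solyc05g007830 was at 0.39 and Solyc03g115890 at 0.14, and without positive DIF replicate 3 Solyc10g086520 was at 0.70. The number of genes higher at an unadjusted p under 0.05 in limma was 4 without positive DIF replicate 1, where 9.14% of all probes were higher. It was 1 without positive DIF replicate 2 and 0 without positive DIF replicate 3 or any 1 of the negative DIF arrays.

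**Figure D2:**
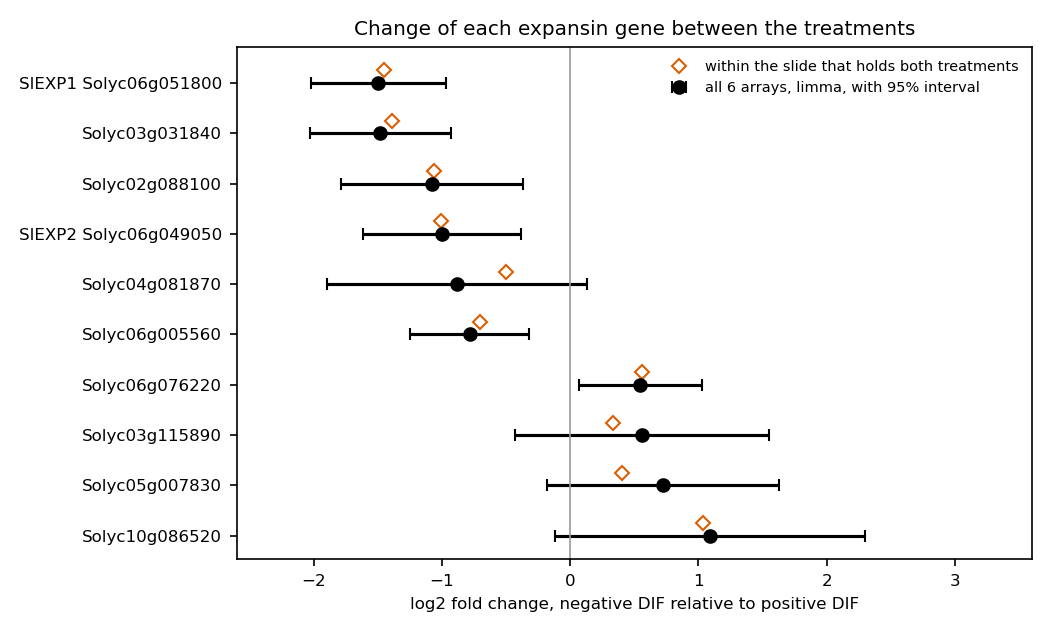
Log2 fold change of each expansin gene, negative relative to positive DIF (horizontal axis), from limma on all 6 arrays with its 95% interval (black), and on the slide that holds both treatments, with negative DIF replicate 3 against positive DIF replicates 1 to 3 (open diamonds). The 6 genes with a lower and the 4 with a higher signal kept their direction on the shared slide, where SlEXP1 was at -1.45 and Solyc06g076220 at 0.56.

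For the 10 genes, replicates of positive DIF differed from each other more than those of negative DIF did. The SD over the 3 arrays was larger under positive DIF in 10 of the 10 genes, with a median of 0.49 against 0.12 on the log2 scale. Over the probes well above background on all 6 arrays, 65.8% had the larger SD under positive DIF, with medians of 0.28 and 0.20. Over all probes the share was 53.7% and the medians ran the other way, at 0.29 under positive and 0.34 under negative DIF. The array that stood out was not the same one throughout. Positive DIF replicate 1 was the highest of its treatment for SlEXP2, Solyc02g088100, Solyc03g031840, Solyc04g081870 and the 3 overlapping genes with a higher mean, the lowest for SlEXP1, and the middle one for Solyc06g005560 and Solyc06g076220. The ratio of the highest to the lowest positive DIF array ran from 1.35 for Solyc06g005560 to 3.81 for Solyc10g086520.

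Because slide and treatment overlap in part, each gene was also compared on the slide that holds both treatments. There the log2 fold change was -1.45 for SlEXP1, -1.39 for Solyc03g031840, -1.06 for Solyc02g088100 and -1.01 for SlEXP2, close to the values from all arrays. Solyc06g005560 was at -0.70 and Solyc06g076220 at 0.56. Solyc04g081870 shrank to -0.50, Solyc05g007830 to 0.40 and Solyc03g115890 to 0.33, while Solyc10g086520 was at 1.04. A fit with slide as a fixed block rests on the same 1 negative DIF array against 3, since the other slide holds no positive DIF array, and its error assumes that this array varies like the rest. In that fit 2 genes were lower at an unadjusted p under 0.05 in limma (SlEXP1 and Solyc03g031840) and 0 were higher. Of all probes 7.38% passed the unadjusted threshold in either direction. None of the 10 genes passed the adjusted threshold, and neither did any other of the 43803 probes, so that outcome is not particular to the family.

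The signals of the 10 genes were then added up on the linear scale, as multiples of each array's 75th percentile, and the share of each gene in the sum was taken. Probes bind their targets with different strength, so a share is one of spot brightness and does not rank the transcripts. The change of a gene's share between treatments also depends on the signals of the other genes, because all shares on an array are parts of the same sum. The summed signal was 113, 83.0 and 71.6 under positive DIF and 51.6, 55.4 and 59.7 under negative DIF. Every negative DIF array was below every positive DIF array, with a difference of -0.66 on the log2 scale. The two-sided exact permutation p was 0.1, the smallest that 3 arrays against 3 allow, so the sum could not pass 0.05. On the shared slide the difference was -0.55.

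Between 82.2% and 87.5% of the family's signal on any array came from Solyc04g081870, Solyc06g005560, Solyc06g076220 and Solyc02g088100. SlEXP2 gave 8.81% ± 0.61 (SD, n = 3) under positive DIF and 6.97% ± 0.48 (SD, n = 3) under negative DIF, and SlEXP1 gave 5.09% ± 1.89 and 2.70% ± 0.18. The 3 genes with the smallest shares together gave between 1.70% and 2.14%. Of the summed difference of the 6 genes that were lower, 33.8% came from Solyc04g081870, 27.4% from Solyc02g088100 and 19.0% from Solyc06g005560, against 10.5% from SlEXP2, 7.13% from SlEXP1 and 2.25% from Solyc03g031840. SlEXP1 and Solyc03g031840, with the largest fold changes, were thus a small part of the difference in brightness. The order of the others depended on the arrays. Without positive DIF replicate 1 the parts were 27.4% for Solyc06g005560, 26.2% for Solyc04g081870, 22.3% for Solyc02g088100 and 11.7% for SlEXP1. On the shared slide Solyc02g088100 gave 30.7% and Solyc04g081870 27.3%. The 4 genes that were higher made up for 13.6% of the summed difference, or 21.5% without positive DIF replicate 1, and 86.8% of their sum came from Solyc06g076220.

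Solyc06g076220 had the largest difference in share, under every alternative tried. It gave 9.59%, 13.7% and 11.6% of the family's signal on the positive DIF arrays and 30.7%, 24.6% and 24.9% on the negative DIF arrays. The mean was higher by 15.1 percentage points under negative DIF, at 26.8% ± 3.4 (SD, n = 3) against 11.6% ± 2.1 (SD, n = 3), and the treatments did not overlap. On the shared slide the share was higher by 13.3 percentage points.

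Solyc02g088100 had a lower share under negative DIF, with 25.2%, 17.3% and 21.9% under positive DIF and 17.0%, 16.0% and 14.9% under negative DIF, a difference of -5.53 percentage points. Its lowest positive DIF value lay just above its highest negative DIF value, and without positive DIF replicate 1 the difference was -3.65 points. The shares of SlEXP1, SlEXP2 and Solyc03g031840 were also lower without overlap, with differences of -2.39, -1.84 and -0.66 percentage points. Those of Solyc05g007830, Solyc10g086520 and Solyc03g115890 were higher without overlap, by 1.43, 0.46 and 0.26 points, although their own levels overlapped between treatments. With the lower sum under negative DIF, a gene gains share even at an unchanged level, so a separated share does not show a separated level. Each of these 8 genes had a two-sided exact permutation p of 0.1, the smallest that 3 arrays against 3 allow, so no share could pass 0.05. The shares of Solyc06g005560 and Solyc04g081870 overlapped, at an exact permutation p of 0.8 and 0.5.

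**Figure D3:**
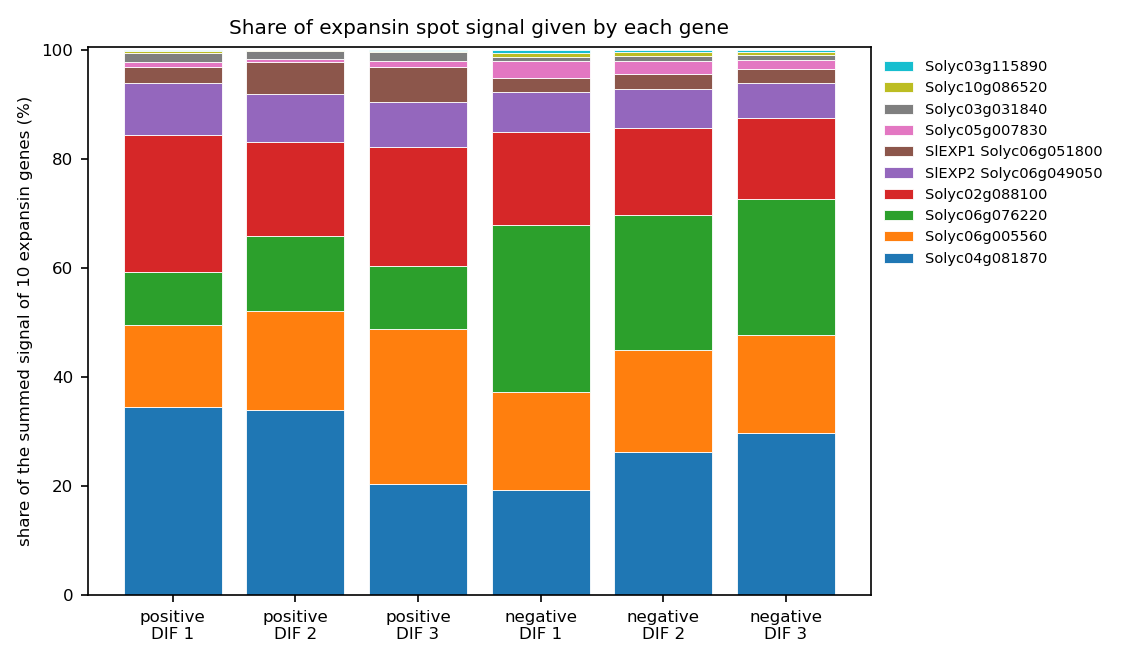
Share of the summed expansin signal in percent (vertical axis) given by each of the 10 genes on the 3 positive and 3 negative DIF arrays, stacked with the largest mean share at the bottom. The green band, Solyc06g076220, took between 9.59% and 13.7% on the positive DIF arrays and between 24.6% and 30.7% on the negative DIF arrays.

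A ratio of 2 probes on the same array does not depend on how the arrays are scaled to each other. The ratio of Solyc06g076220 to each of the other 9 genes was therefore set side by side between treatments, as a description, since the gene was chosen after its values were seen. Against SlEXP1 the log2 ratio was 1.71, 1.22 and 0.85 on the positive DIF arrays and 3.55, 3.09 and 3.27 on the negative DIF arrays, a difference of 2.05, or a 4.13-fold change of the ratio. Against Solyc03g031840 the change of the ratio was 4.07-fold, and against Solyc02g088100, SlEXP2, Solyc04g081870 and Solyc06g005560 it was 3.08-fold, 2.92-fold, 2.69-fold and 2.52-fold. The treatments did not overlap in any of these 6 ratios. For all but that to Solyc04g081870 this follows from the levels, where Solyc06g076220 lay wholly above and the other gene wholly below under negative DIF. The levels of Solyc04g081870 itself overlap. Against Solyc05g007830, Solyc03g115890 and Solyc10g086520 the treatments overlapped, and the differences were -0.18, -0.01 and -0.54 on the log2 scale. On the shared slide the difference against SlEXP1 was 2.01 and that against Solyc04g081870 was 1.06.

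**Figure D4:**
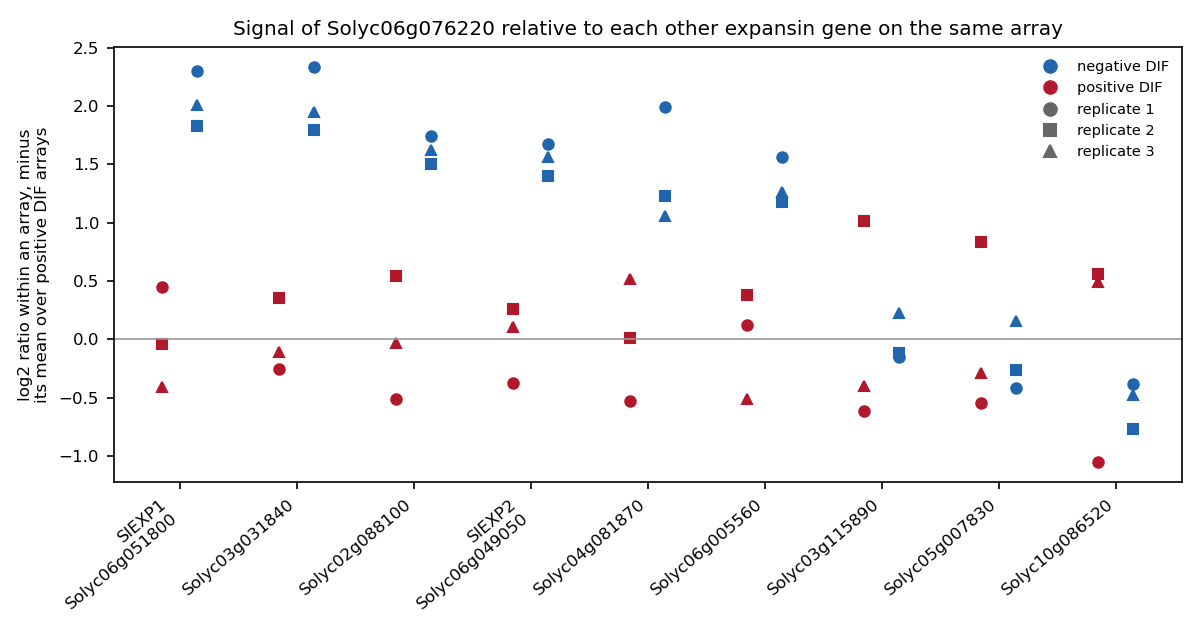
Log2 ratio of Solyc06g076220 to each other expansin gene on the same array, minus its mean over the positive DIF arrays (vertical axis), for positive (red) and negative DIF (blue) arrays, with marker shape for the replicate. For the leftmost 6 genes all negative DIF arrays lie above all positive DIF arrays, with the largest difference, 2.05, against SlEXP1, and for the other 3 the treatments overlap.

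The direction of each gene was also checked with no scaling between arrays, a setting chosen after the data were seen. The median over all probes was then 0.44 on the log2 scale, against 0.07 with the scaling, and each of the 10 genes kept its direction, the 4 higher ones also relative to that median. SlEXP1 was at -1.13 and Solyc06g076220 at 0.91, and 2 genes were lower and 3 higher at an unadjusted p under 0.05 in limma, in place of 5 and 1. Over all probes 3.52% were then lower and 18.5% higher, in place of 8.72% and 10.2%. The unscaled signal of SlEXP2 overlapped, with 9149 on negative DIF replicate 1 and 8706 on positive DIF replicate 3, so its separation depends on the scaling. SlEXP1, Solyc03g031840 and Solyc06g076220 did not overlap on the unscaled signal. Solyc02g088100 and Solyc06g005560 did not overlap either, but narrowly. The former had 21131 on negative DIF replicate 1 and 22335 on positive DIF replicate 2, the latter 22324 and 23402 on the same arrays. In limma without scaling their unadjusted p was 0.070 and 0.127. How many of all probes were separated on the unscaled signal was not counted.

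The probe that followed Solyc04g081870 most closely over the 6 arrays, among 25316 probes of other genes well above background on all of them, was that of Solyc12g056110 (Pearson r = 0.9995), followed by Solyc06g008360 (r = 0.997). These values describe 6 arrays that fall into the 2 treatments, and no source used here describes either gene. Like Solyc04g081870, neither passed the unadjusted threshold, with a log2 fold change of -0.49 for both and adjusted p of 0.384 and 0.344 from limma. How far a probe of one expansin also binds transcripts of another was not tested, since probe sequences were not used here.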

How the data were processed

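Epicotyl RNA from 3 replicates per treatment was labelled with 1 dye and hybridised to a custom Agilent tomato array. The authors deposited, per array, the spot intensity from Agilent Feature Extraction 10.10.1.1, with the background removed spot by spot and no scaling between arrays. A table with 33614 genes on a log2 scale was deposited as well, and its normalization is not given in the sources used here. The heading over its columns gives each treatment the other's name. The columns were used as the scanner files and the study's supplementary table name them, because each column has the rank order of median spot minus background signal of 1 array (Spearman correlation 1 over 26865 genes with a single probe, at most 0.986 with any other array).

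Spots for controls were dropped, as were 4 spots marked as outliers. Each array's 75th percentile was subtracted from its log2 processed signals. Treatments were compared with the lmFit and eBayes steps of limma 3.58.1 under R 4.3.3, p-values were adjusted over all 43803 probes by Benjamini-Hochberg, and the threshold was 0.05. The fit was tested on simulated data with 200 changed probes. The simulated noise was independent between arrays, so that test could not address the partial overlap of slide and treatment. Shares and the summed signal used exact permutation tests in scipy 1.17.1, and with 1 probe per gene the mean and the brightest probe of a gene are the same. Alternatives were no scaling, each array left out in turn, blocks for slide (fixed or random) and for replicate number, Student's t-test, trend and robust options in eBayes, dim probes filtered, the deposited values, quantile normalization, and normexp background correction on the median spot signal with an offset of 50. The text names the 10 family genes and the 2 probes most like the member with the largest mean share. The members and lists were chosen with earlier results of these data known. Counts of other expansins, other cell wall genes and tissue markers were planned and are not given, because no table used here pairs tomato identifiers with descriptions.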

Additional observations from a re-analysis of the deposited data

How the results depend on the processing

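Each of the 10 genes kept the direction of its log2 fold change in every alternative. The number of genes lower at an adjusted p under 0.05, 1 as reported, was 2 with quantile normalization, 3 with dim probes filtered, and 4 with normexp, on the deposited values, under trend and robust options and under a random slide block, whose estimated correlation within slides was -0.216. It was 0 with a fixed slide block, the replicate block, Student's t-test and no scaling, and 0 to 0 with each array left out. SlEXP1 thus lost its call without any 1 array. Over all probes the share called lower was 0.0% with a fixed slide block and with the replicate block. With Student's t-test it was 0.0388%, and with no scaling 0.24%. With each array left out it was between 0.0% and 0.32%, against 0.495% with all arrays. None of the 10 genes was higher at an adjusted p under 0.05 in any setting. The share of tested probes called lower moved up too, from 0.495% to 1.59% with quantile normalization and to 3.85% of the 26942 probes kept by the filter. It was 2.58% with normexp, 2.1% with trend and robust options and 3.49% with a random slide block. On the deposited values it was 3.49% of 33614 genes. At an unadjusted p under 0.05, 5 genes were lower as reported (8.72% of all probes). The number was 2 with slide as a fixed block (3.50%) and 2 with no scaling (3.52%). With an array left out it was 5 to 6 (6.4% to 8.05% of all probes). The number higher, 1 as reported (10.2% of all probes), was 2 with normexp (9.38%) and with trend and robust (11.1%), 3 with a random slide block (15.5%) and with no scaling (18.5%), 0 with slide as a fixed block (3.88%) and with the replicate block (8.73%), and 0 to 4 with an array left out, the highest without positive DIF replicate 1. Normexp moved the median of all probes to -0.20. The summed signal differed by between -0.81 and -0.48 on the log2 scale over its alternatives. The share of Solyc06g076220 was higher by 13.1 to 16.2 percentage points. That of Solyc04g081870 reversed to 0.235 points on the shared slide, and that of Solyc06g005560 reversed without positive DIF replicate 3, ranging from -5.08 to 1.56 points with an array left out. The causes were not tested. Deviations of same-numbered arrays from their treatment means correlated at 0.006, 0.044 and 0.223, and those of arrays with different numbers at between -0.351 and 0.318. These values show no clear pairing by replicate number, and with means of only 3 arrays they cannot settle whether the samples were paired. With 3 arrays a treatment, precision is limited by their number.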
